A study of Glycine max with 9 samples.

Results

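Glycinin is the 11S storage globulin of the soybean seed. Transcripts of 4 of its genes, Gy1, Gy3, Gy4 and Gy5, are described here in developing seeds of 9 soybean lines. The genes were chosen by their genomic spans, and they are 4 of the 33779 expressed genes in the deposited table. Each span belonged to 1 gene of the table, and 0 other genes overlapped any of them. Spans refer to the Williams 82 genome with the Gmax_189 annotation. Gy1 (gene model Glyma03g32030) lies at Gm03:39840051-39842763, and Gy3 (Glyma19g34780) at Gm19:42366323-42369290. Gy4 (Glyma10g04280) lies at Gm10:3247991-3250886, and Gy5 (Glyma13g18450) at Gm13:22109246-22113254. The current RefSeq gene list for soybean, built on another assembly, carries all 4 symbols.

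Glycinins are cupin-fold proteins that are made on the endoplasmic reticulum of cotyledon cells and stored in protein storage vacuoles. Each precursor is cut into an acidic and a basic chain that stay joined by a disulfide bond, and the subunits assemble into hexamers. The genes fall into group I, with Gy1, Gy2 and Gy3, and group II, with Gy4 and Gy5. Together with the 7S globulin β-conglycinin they supply most of the protein of a mature soybean, and as nitrogen stores they are drawn on during germination.

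RNA was sequenced from whole seeds at the mid-maturation stage S6 of plants grown in chambers under settings that all lines shared. The labels describe R02-6268F, R05-4256, R05-591 and R08-1450 as high oil lines and R95-1705 as a high protein line. FAM94 is labelled high in stearic acid, M23 mid in oleic acid, and N0304-303-3 low in palmitic acid, mid in oleic acid and low in linolenic acid, while Jack is labelled as similar to commodity oil. Each line had 1 library, so no line has a replicate error, and neighbouring lines in any order given below cannot be told apart by their spread. Lines differ in their whole genetic background, and in whole seeds fewer cells of a type and less RNA per cell cannot be told apart. The table holds 2 kinds of value. The first is the mean FPKM (fragments per kilobase of transcript, scaled to the number of mapped reads) over the 9 lines, as averaged by the authors. The second is a Z-score for each line, which states how many standard deviations the log2 FPKM of a gene lay above or below its own mean over the lines. A Z-score orders the lines for 1 gene, and it gives no fold change between lines and no level that could be compared between genes. With 9 lines it cannot exceed 2.67 in size. No read counts were part of the table, so the depth behind each value is unknown and no counting error is given.

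Gy1, Gy4 and Gy5 were among the most abundant transcripts of the seed, whereas Gy3 was far less abundant. Gy1 had a mean of 27377 FPKM, second among all genes after a 2S albumin gene, Glyma13g36400, at 33706 FPKM. Gy4 followed at rank 3 with a mean of 22663 FPKM, and Gy5 stood at rank 8 with 11787 FPKM. The mean level of Gy1 was 1.21 times that of Gy4, and the mean level of Gy4 was 1.92 times that of Gy5, its partner in group II. Gy3 had a mean of 377.94 FPKM and rank 155. The mean level of Gy1 was 72.4 times that of Gy3, and even that of Gy5 was 31.2 times as high. The mean of Gy3 was 107 times that of the median gene, at 3.53 FPKM, and 99.5% of genes had a lower mean. These levels are per length of transcript, but they are means over lines on a linear scale and have no error. For Gy3, whose Z-score in M23 stood far above the rest, 1 line may hold much of the mean. Its level, its rank and both ratios without M23 were not analysed here, since no FPKM per line was used.

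The 4 genes made up 8.46% of the mean FPKM summed over all genes, to which Gy1 gave 3.72%, Gy4 3.08%, Gy5 1.6% and Gy3 0.0514%. Gy2 (Glyma03g32020), the remaining glycinin gene with a name in the study's list of abundant transcripts, had a mean of 21377 FPKM and rank 4, and with it 5 glycinin genes reached 11.4%. The 4 β-conglycinin genes of the same list amounted to 2.23% and its 2 genes of 2S albumins, small sulfur-rich storage proteins, to 5.69%. Since FPKM is relative to all mapped fragments, genes that take so large a share also move the values of each other. Reads that matched more than 1 location had been removed, and glycinin genes of the same group are similar in sequence. The levels and the ratios between them are uncertain to that extent.

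**Figure D1:**
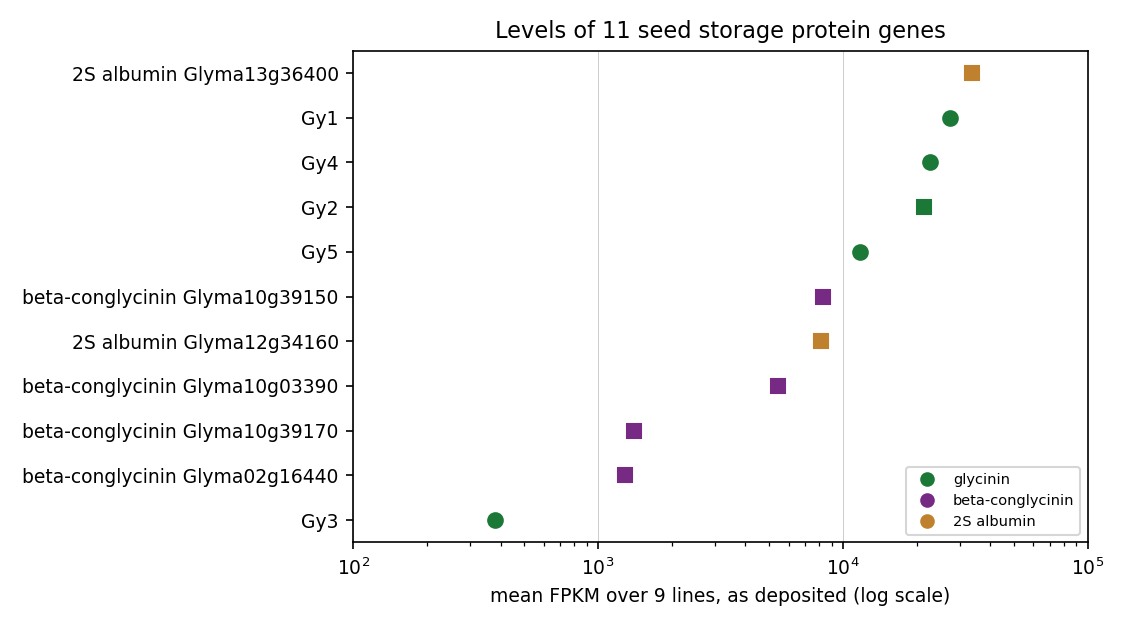
Mean FPKM over 9 lines (log scale) of 11 seed storage protein genes, 1 symbol per gene, with circles for Gy1, Gy3, Gy4 and Gy5, squares for the other genes, and colours for the protein class. Gy1 (27377 FPKM), Gy4 (22663 FPKM) and Gy5 (11787 FPKM) lie near the top of the range, and Gy3 (377.94 FPKM) lies below all 10 other genes. Those 10 were taken from the study's list of abundant transcripts, which Gy3 is not on, so its place was set by the choice of genes. Less abundant storage protein genes are not shown.

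Among the 9 lines, M23 had the highest Z-score for all 4 genes. For Gy1, a subunit gene of group I, the Z-scores of the high oil lines were 0.01 in R02-6268F, -1.0 in R05-4256, -0.63 in R05-591 and -1.48 in R08-1450. In the other lines Gy1 stood at -0.27 in Jack, 0.54 in FAM94, 1.73 in M23, 1.02 in N0304-303-3 and 0.09 in R95-1705. Gy1 was therefore highest in M23, followed by N0304-303-3 and FAM94, and lowest in R08-1450, and 3 of the 4 high oil lines lay below all other lines.

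Gy4 encodes a larger subunit of group II. Its Z-scores in the high oil lines were 0.20 in R02-6268F, -1.68 in R05-4256, -0.34 in R05-591 and -1.40 in R08-1450. In the other lines Gy4 had 0.13 in Jack, 1.0 in FAM94, 1.19 in M23, 0.77 in N0304-303-3 and 0.13 in R95-1705. M23 and FAM94 were only 0.19 apart at the top, and R05-4256 and R08-1450 stood below the rest. All 5 lines that are not labelled high oil lay above 0 for Gy4. The high oil line R02-6268F did so as well, and it stood above Jack and R95-1705.

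Gy5, the other gene of group II, had Z-scores of 0.19 in R02-6268F, -0.67 in R05-4256, -0.07 in R05-591 and -1.93 in R08-1450 among the high oil lines. The other lines gave 0.16 in Jack, 0.77 in FAM94, 1.73 in M23, 0.20 in N0304-303-3 and -0.37 in R95-1705. The extremes of Gy5 were set apart from the remaining lines, with M23 0.96 above the next line and R08-1450 1.26 below its neighbour. Jack, R02-6268F and N0304-303-3 lay next to each other between 0.16 and 0.20.

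Gy3, the group I gene on chromosome 19, had a different order of lines. Its Z-scores were -1.0 in R02-6268F, 0.39 in R05-4256, -0.21 in R05-591 and -0.20 in R08-1450 among the high oil lines. In the other lines Gy3 had -0.35 in Jack, 0.33 in FAM94, 2.29 in M23, -0.10 in N0304-303-3 and -1.14 in R95-1705. M23 was 1.90 above the next line, R05-4256, and the remaining 8 lines spanned less than that distance. The lowest values of Gy3 came from R95-1705, the high protein line, and R02-6268F.

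The study took a Z-score of 2 in size as the mark of a gene that varied between lines. Gy3 in M23 was the single value past this cutoff among all values of the 4 genes. Of all genes, 23.8% passed the cutoff in at least 1 line, so 1 of 4 is close to the background. A Z-score of at least 2 in M23 itself was held by 0.604% of all genes. That share takes the line and sign in which Gy3 passed, so it does not measure how rare 1 of 4 was. Gy5 in R08-1450, at -1.93, was the nearest value inside the cutoff.

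A highest value in M23 was found for 8.63% of all genes, and for 16.9% of the 65 genes averaging 1000 FPKM or more. All 4 genes, and Gy2 as well, had theirs there, but the 5 genes share libraries and are not independent. The line in second place was N0304-303-3 for Gy1, FAM94 for Gy4 and Gy5, and R05-4256 for Gy3. The lowest line was R08-1450 for Gy1 and Gy5, and R08-1450 was also the lowest line for 20.8% of all genes.

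**Figure D2:**
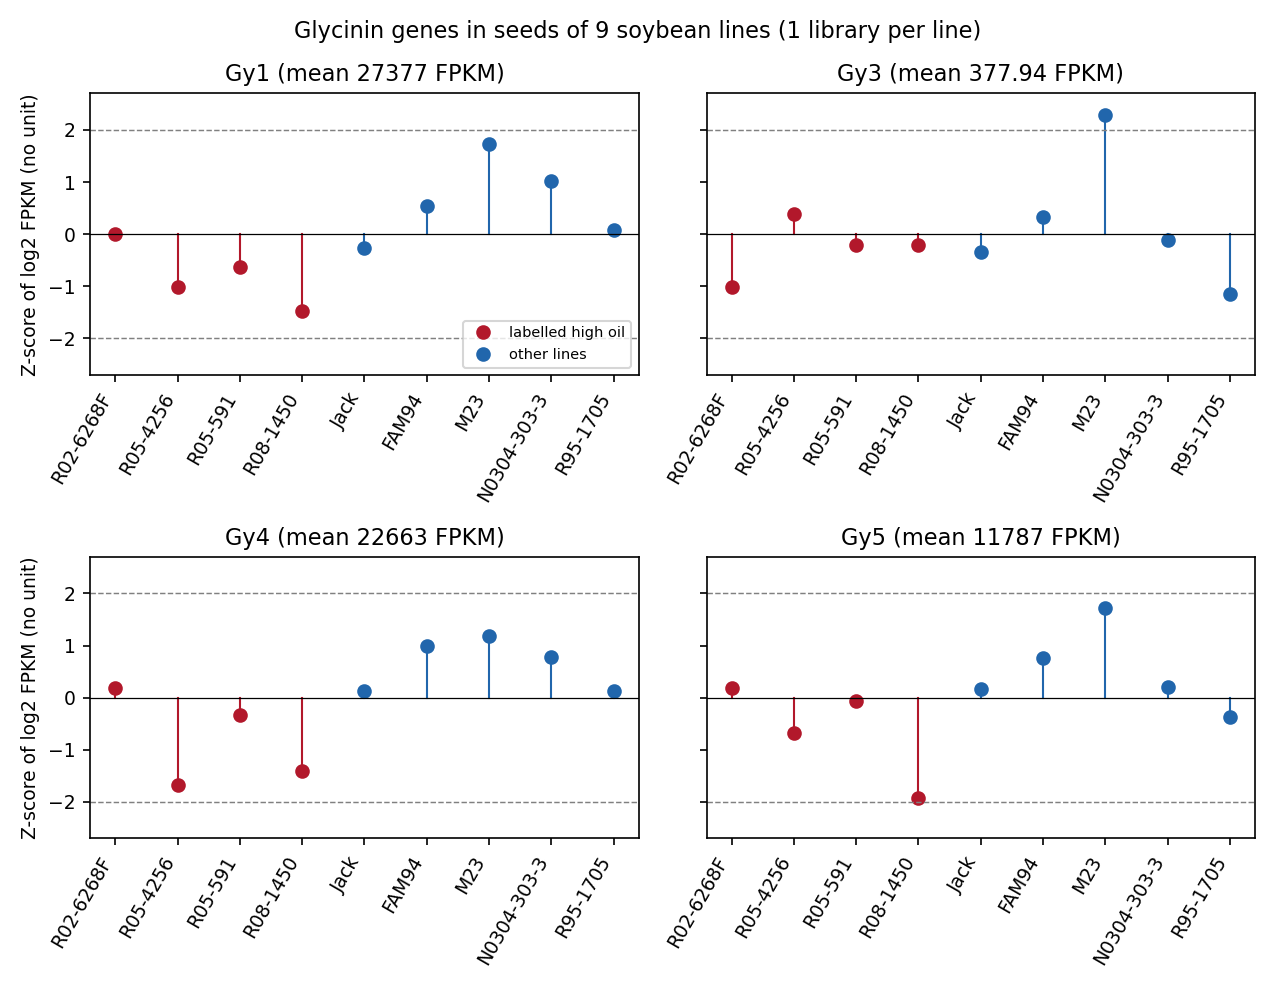
Z-scores of log2 FPKM (no unit) of Gy1, Gy3, Gy4 and Gy5 in 9 lines, 1 point per library, with red for lines labelled high oil, blue for the other lines and dashed lines at the cutoff of 2 in size. M23 is the highest line in each panel, and Gy3 in M23 (2.29) is the single point past the cutoff.

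Each gene of the family was next compared between the 4 high oil lines and the other 5 lines, to ask whether glycinin transcripts differed between them. The labels do not call the other 5 lines low in oil, and apart from Jack they give fatty acids or protein. The comparison is therefore not one of measured or labelled oil content. Mean Z-scores of all 4 genes were lower in the high oil lines, although that of Gy3 was higher by 0.109 without M23, and the exact test gave an unadjusted p under 0.05 for Gy1 and Gy4. Gy1 averaged -0.78 ± 0.63 (SD, n = 4 lines) in high oil lines and 0.62 ± 0.79 (SD, n = 5 lines) in the others, a difference of -1.40 (exact two-sided permutation test, p = 0.0317). For Gy4 the means were -0.81 ± 0.88 (SD, n = 4) and 0.65 ± 0.49 (SD, n = 5), which differed by -1.45 (exact permutation test, p = 0.0238). All 4 high oil lines lay below the median of the other lines for both genes, but R02-6268F lay above the lowest of them, so the groups overlapped. The paper's tree of sequence differences places M23, FAM94 and N0304-303-3 in a single clade, and none of them is labelled high oil. They were the 3 highest lines for Gy1, Gy4 and Gy5, though not for Gy2 or Gy3. The contrast thus overlaps with one of this clade against the remaining lines, which was not tested.

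Gy5 showed the same sign without passing the threshold. Its means were -0.62 ± 0.95 (SD, n = 4) and 0.50 ± 0.80 (SD, n = 5), a difference of -1.12 (exact permutation test, p = 0.0952). Gy3 had largely overlapping groups, with -0.26 ± 0.57 (SD, n = 4) against 0.20 ± 1.28 (SD, n = 5) and a difference of -0.46 (exact permutation test, p = 0.643). R95-1705 and M23, both outside the high oil group, were the lowest and highest lines for this gene. Without M23 its difference turned to 0.109, and the difference of group medians over all lines was -0.099, while that of Gy5 was -0.566.

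Gy2, with -0.88 ± 0.32 (SD, n = 4) and 0.71 ± 0.72 (SD, n = 5), was separated completely between the groups. Its highest high oil line had -0.61 and its lowest other line -0.51, and the difference of the means was -1.59 (exact permutation test, p = 0.0159). Complete separation with the high oil lines below was found for 0.468% of all genes. An unadjusted p under 0.05 with lower values in high oil lines occurred in 1.42% of all genes and in 2.95% of the 7328 genes averaging 10 FPKM or more. The 65 genes averaging 1000 FPKM or more had a median difference of -0.44, whereas the median over all genes was 0.0028. None of these p-values held after correction, since the Benjamini-Hochberg adjusted p over all 33779 genes was 1 for every gene of the family. With 126 ways to choose the 4 lines, the exact permutation test cannot give a p below 0.00794. An adjusted p under 0.05 thus needed a large share of all genes near that floor, so failing it says little either way. By the exact permutation test, 1070 genes (3.17%) had an unadjusted p under 0.05 in either direction, while 0 passed after adjustment.

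Leaving out single lines moved both differences little, but with 8 lines the exact test has fewer possible p-values, and most of them missed the threshold. Without any 1 line the difference for Gy1 lay between -1.55 and -1.31, with p from 0.0286 to 0.0893 (exact permutation test), and it passed in 2 of 9 cases, without Jack and without R02-6268F. For Gy4 the range was -1.68 to -1.38, with p from 0.0179 to 0.0857 (exact permutation test), and only the case without R02-6268F passed.

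**Figure D3:**
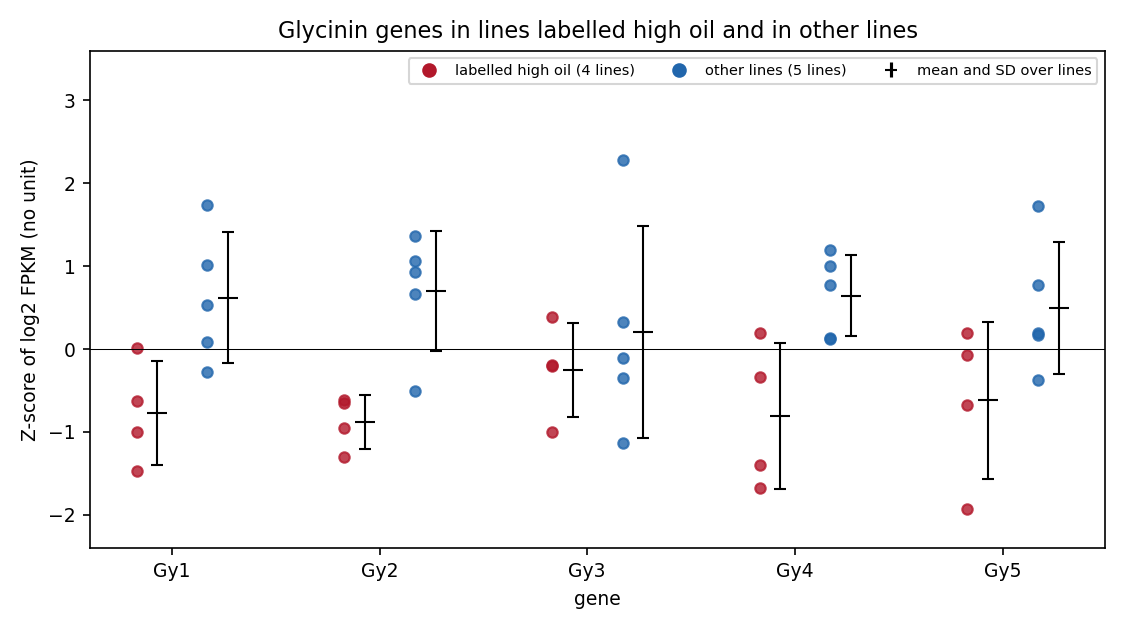
Z-scores of log2 FPKM (no unit) of 5 glycinin genes in 4 lines labelled high oil (red) and 5 other lines (blue), 1 point per line, with black bars for the mean and SD over lines. The groups overlap for Gy1, Gy3, Gy4 and Gy5 and are separate for Gy2, and the difference of means runs from -0.46 for Gy3 to -1.59 for Gy2.

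Gy1, Gy4 and Gy5 varied together over the lines, and Gy3 did so less. Pearson's r over the 9 lines was 0.92 between Gy1 and Gy4 (Spearman's rho 0.95), 0.89 between Gy1 and Gy5 (rho 0.88) and 0.86 between Gy4 and Gy5 (rho 0.93). When each line was left out in turn, r stayed between 0.885 and 0.946 for Gy1 with Gy4, between 0.805 and 0.932 for Gy1 with Gy5, and between 0.809 and 0.928 for Gy4 with Gy5. Among the 33778 other genes, Gy4 ranked 8 by its r with Gy1, and Gy1 ranked 8 by its r with Gy4. Gy5 ranked 25 by its r with Gy1 and 58 by its r with Gy4. In the other direction, by r with Gy5, Gy1 ranked 57 and Gy4 ranked 131. All these points come from the same 9 libraries, and the values are given as a description.

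Gy3 had an r of 0.51 with Gy1 (rho 0.23), 0.28 with Gy4 (rho 0.22) and 0.56 with Gy5 (rho 0.35). These 3 values rested on M23. Without it r was -0.13 with Gy1, -0.21 with Gy4 and 0.018 with Gy5. By its r with Gy1, its relative in group I, Gy3 ranked only 3120, and Gy1 ranked 2131 by its r with Gy3.

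Gy2, which lies 2656 bp from Gy1 on chromosome 3, had an r of 0.78 with Gy1 (rho 0.75) and 0.69 with Gy4 (rho 0.72). Its r was 0.55 with Gy5 (rho 0.57) and 0.45 with Gy3 (rho 0.37), and without M23 these fell to 0.34 and 0.031. It ranked 248 by its r with Gy1, lower than both genes of group II, while Gy1 ranked 71 by its r with Gy2. Gy2 stood above Gy1 in R95-1705, at 0.93 against 0.09, and in R08-1450, at -0.61 against -1.48, and below it in R02-6268F, at -0.96 against 0.01.

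**Figure D4:**
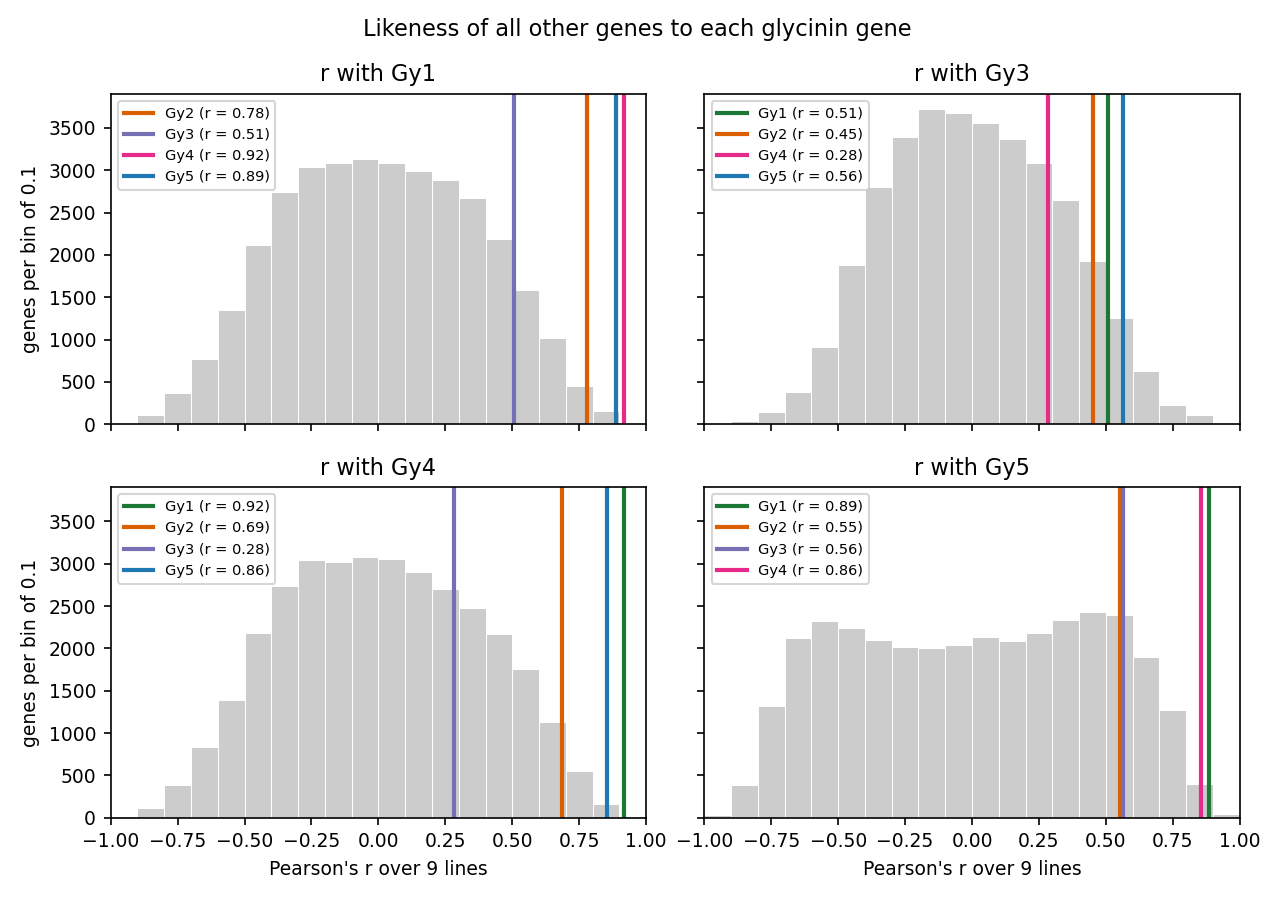
Number of genes per bin of 0.1 of Pearson's r over 9 lines (x axis) with Gy1, Gy3, Gy4 and Gy5, 1 panel each, over 33778 other genes, with coloured lines at the other glycinin genes. Gy4 and Gy5 lie in the upper tail of the panel for Gy1 (0.92 and 0.89), and all lines in the panel for Gy3 lie between 0.28 and 0.56.

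The 3 genes with the highest r to each of the 4 genes, among those averaging 10 FPKM or more, gave 12 entries. For Gy1 these were XLOC_043144 (r = 0.92), Gy4 and Gy5, so that 2 of the 3 were glycinin genes. Gy3, Gy4 and Gy5 had no named glycinin gene among theirs. The entry nearest to Gy4 was XLOC_020969 (r = 0.97) and that nearest to Gy5 was XLOC_040980 (r = 0.95), while XLOC_022359 (r = 0.87) was nearest to Gy3. The sources used here pair 10 of the 12 entries with no gene name. These 10 had means from 10.02 to 92.24 FPKM, far below Gy1, Gy4 and Gy5. Of the 12 entries, 10 were highest in M23, among them all 3 nearest to Gy3.

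Genes next to the 4 glycinin genes on the chromosomes did not share their levels, apart from Gy2 beside Gy1. The other 7 neighbours had mean levels from 3.418 to 92.1 FPKM, and their r with the glycinin gene beside them ran from -0.514 to 0.506. The gene 5791 bp before Gy3 had a mean of 17.17 FPKM and an r of 0.51. RefSeq places GY7, a further glycinin gene, beside GY3, but no identifier ties an entry of the table to it.

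The remaining storage protein genes followed other orders of lines, although M23 was high for most of them. Of the 4 β-conglycinin and 2 2S albumin genes, 2 were highest in M23 and 4 were lowest in R08-1450 (20.8% of all genes). M23 was second, after Jack, for Glyma13g36400, Glyma12g34160 and Glyma02g16440, but stood at -0.43 for Glyma10g39170. Between high oil and other lines, 0 of 6 had an exact p under 0.05 (exact permutation test, p from 0.302 to 0.952). The β-conglycinin genes encode trimeric 7S globulins that fill the same vacuoles. Glyma10g39150, the β-conglycinin gene with the highest mean, 8265.7 FPKM, had an r of 0.80 with Gy5 (rho 0.52), 0.69 with Gy3 (rho 0.33), 0.60 with Gy1 (rho 0.35) and 0.49 with Gy4 (rho 0.27). Without M23 its r fell to 0.65 with Gy5, 0.28 with Gy3 and 0.29 with Gy1, and without R08-1450 it fell to 0.27 with Gy4. Glyma10g39170, at 1396.4 FPKM, went its own way, with its highest Z-score, 1.4, in R95-1705 and its lowest, -1.93, in R05-591, and its r with the 4 genes lay between -0.30 and 0.03. The median r with these 6 genes was 0.37 for Gy1, 0.44 for Gy3, 0.29 for Gy4 and 0.62 for Gy5, beside medians over all genes between -0.0017 and 0.0136. The value for Gy3 leaned on M23. Without that line its r lay between 0.10 and 0.30 with each of the 6 genes but Glyma10g39170. Over the genes averaging 1000 FPKM or more, the median r was 0.105 for Gy1, 0.232 for Gy3, 0.0077 for Gy4 and 0.121 for Gy5.

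Lines differed in how glycinin genes stood against the other storage genes. In M23 the median Z-score was 1.73 over the 5 glycinin genes and 1.19 over the 6 others, and in R08-1450 it was -1.40 and -1.45. These lines were thus high or low for both classes. In Jack the glycinin median was -0.27 and that of the other storage genes 1.33, and in R05-4256 the medians were -0.67 and 0.29. FAM94 showed the opposite, with 0.77 for glycinin and -0.25 for the others, as did R95-1705 with 0.09 and -1.08. With 1 library per line, no test of these contrasts was possible, and the median over all genes of the table lay between -0.10 and 0.03 in every line.

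**Figure D5:**
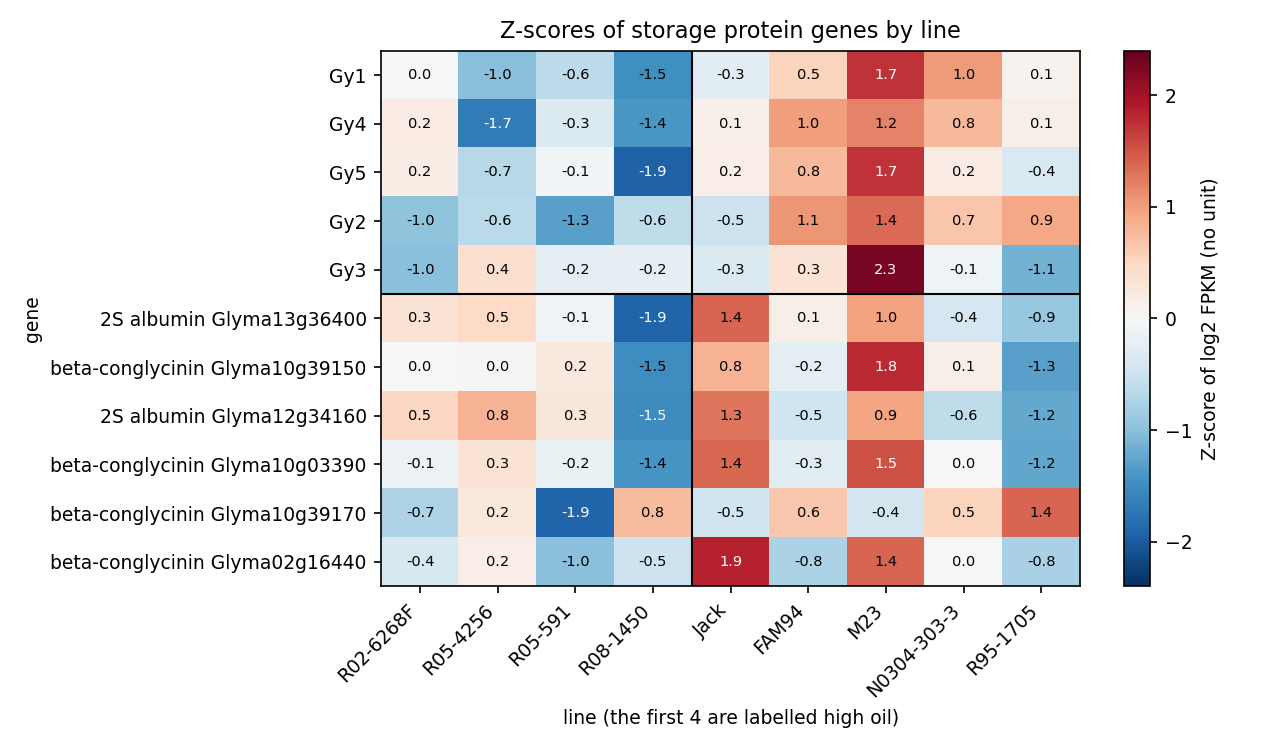
Z-scores of log2 FPKM (colour and printed value, no unit) of 5 glycinin genes (upper rows) and 6 other storage protein genes (lower rows) in 9 lines (columns), with the 4 lines labelled high oil on the left. M23 is red and R08-1450 blue for most genes of both classes, while Jack is low to middling for glycinin (median -0.27) and high for most of the others (median 1.33).

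Markers of the seed were abundant in the table, and in some lines but not in others they moved with the glycinin genes. The 6 marker genes of seed tissue (2S albumin, β-conglycinin, lectin, oleosin, Kunitz trypsin inhibitor and lipoxygenase, of which the first 2 are also storage genes counted above) had 7 entries (2 for lectin) with means from 2012.3 to 33706 FPKM. In R08-1450 all 7 lay below 0, from -1.93 to -1.04, beside the low values of Gy1, Gy4 and Gy5. In R95-1705 all 7 lay below 0 as well, from -1.58 to -0.25, whereas Gy1 and Gy4 stood at 0.09 and 0.13 there. In R05-4256 all 7 lay above 0, from 0.03 to 0.94, although it was the lowest line for Gy4 and the next to lowest for Gy1. In M23, 6 of 7 lay above 0, up to 1.8, and in Jack all 7 did, from 0.84 to 1.77. Of the photosynthesis genes, 7 entries could be named, from lists that the study had selected for variation between lines, with means from 1.29 to 103.9 FPKM. In M23, 6 of these 7 lay above 0, up to 1.10, and in R08-1450, 6 of 7 lay below 0, down to -2.13. All 7 lay above 0 in R05-4256 and below 0 in FAM94, and 6 of 7 lay below 0 in R95-1705 and in N0304-303-3, while 5 of 7 lay above 0 in Jack, R02-6268F and R05-591. The part of seed maturity or tissue makeup in the glycinin values was not tested.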

How the data were processed

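Whole seeds at stage S6 of 9 lines were sequenced by the authors as 100 bp paired-end reads, 1 library per line. According to the submitters' processing notes and the study's methods, CASAVA 1.8.2, Bowtie 0.12.8, TopHat 1.4.0, Cufflinks 2.1.1 and Cuffdiff 2.1.1 were used, at most 2 mismatches were allowed, and reads with more than 1 location were removed. The TruSeq RNA kit v2 does not mark strand. The authors kept genes averaging 0.5 FPKM or more, or expressed in all 9 lines. The deposited FPKM is the authors' mean over the lines. The score deposited for each line is a Z-score, which the authors computed from log2 FPKM standardized per gene over the 9 lines. FPKM per line was not used here. The number of per-line columns not used was 0.

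Members and gene lists were chosen with earlier results of these data known. Gene models were tied to the table through span and mean FPKM (relative tolerance 6e-06) in the study's supplementary lists, of which 100, 256 of 270 and 1998 genes (the last list was held in part) were matched. The named genes are the 4 glycinin genes, the other storage protein genes of the list of abundant transcripts, the nearest gene on each side, and the 3 genes with the highest r to each among those of at least 10 FPKM. High oil and other lines were compared for every gene by an exact two-sided permutation test on mean Z-scores (threshold 0.05), with Benjamini-Hochberg adjustment over all genes. The tests of Gy2 and of the other storage genes come from the same run over all genes and were not among the 4 planned comparisons. Lines are the units, so p-values measure the spread between lines of different background. The test treats lines as exchangeable, although the paper's tree of sequence differences groups some of them, and relatedness was not taken into account. Alternatives were each line left out, line medians subtracted, group medians, cutoffs of 2.2 and 1.5, and Spearman's rho. Steps were tested on simulated data. Python 3.11.15, NumPy 2.4.6, pandas 2.3.3, SciPy 1.17.1 and Matplotlib 3.10.9 were used.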

Additional observations from a re-analysis of the deposited data

Results flagged for a closer look

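Gy3 in M23 stood apart from the other lines. The gap to the next line, divided by the range over all 9 lines, was 0.555, above Dixon's critical value for 9 samples. It was the only value past its critical value in the 8 groups examined (each of the 4 genes over all lines and over the high oil lines). Chance passes about 1 in 20 groups, and the groups overlap, since the high oil lines are part of all lines. The share of all genes past this critical value was not computed. With 1 library of M23 the value has no replicate, and its cause was not tested.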

How the results depend on the processing

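Leaving out each line in turn moved the high oil difference between -1.552 and -1.308 for Gy1, between -1.675 and -1.376 for Gy4, between -1.3 and -0.923 for Gy5, and between -0.824 and 0.109 for Gy3. The sign of Gy3 turned only without M23 (0.109, exact permutation test, p = 0.8), and it was -0.824 without R95-1705. Gy1 lost its unadjusted call in 7 of the 9 cases and Gy4 in 8 of 9, and with fewer lines the smallest p that the exact test can give is larger. The correlation of Gy1 with Gy3 ran from -0.130 to 0.612 and that of Gy3 with Gy4 from -0.214 to 0.489, both lowest without M23. The median of the 6 correlations among the 4 genes ran from 0.412 (without M23) to 0.774. At a cutoff of 1.5 the number of glycinin genes past it was 4 in place of 1, but 86.2% of all genes passed that cutoff, and 10% passed 2.2. Subtracting line medians, or comparing group medians, changed no call. Line medians lay only between -0.10 and 0.03, so subtracting them was a weak check. Group medians moved the difference of Gy5 from -1.117 to -0.566 and that of Gy3 from -0.461 to -0.099. With line medians subtracted, an alternative chosen after seeing the data for this count, all 4 genes were still highest in M23. Shifts this small could not have changed that count. Without read counts, no limit from depth can be given for any gene. No paired analysis was possible because each line had 1 library and no replicate numbers tie lines of the 2 groups together.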
